A study of Homo sapiens with 6 samples.

Results

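Genes that mark alveolar and airway epithelial lineages, 10 in all, were followed in A549, an established human lung adenocarcinoma line. They are NKX2-1, SFTPB, SFTPC, SFTPD, LAMP3, AGER, SCGB1A1, MUC5AC, MUC5B and FOXA2. They were taken as probe sets whose gene symbol in the platform table is 1 of these names. The names were chosen with earlier results of these data known. All 10 were found, on 15 probe sets with 1 symbol, among 22395 genes and 53617 probe sets. AGER had 6 probe sets and each of the others 1. The 6 samples fall into 3 groups of 2 arrays: vehicle, Comp.2 and Comp.4. Cells of every group were A549, treated 24 h after plating, and their RNA was taken at day 2. Comp.2 and Comp.4, code names from a series on histone acetyltransferase inhibitors that recognise DNA sequence, were each given at 2 µM. The labels describe the line as alveolar basal epithelial, and do not say that the 2 arrays of a group came from separate cultures, so each p-value rests on a spread between arrays that may be technical.

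In the lung, alveolar type II cells make surfactant and renew the alveolar surface, type I cells form the thin barrier for gas exchange, club cells secrete protective proteins into the small airways, and goblet cells make mucus. The transcription factor NKX2-1 specifies lung from foregut endoderm and drives the surfactant genes, and the forkhead factor FOXA2 acts with it in lung epithelium. Adenocarcinomas of the lung may keep this programme or lose it.

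Of the 10 genes, 5 lay near the floor in vehicle cells: NKX2-1, SFTPB, SFTPC, SFTPD and LAMP3. Of all genes measured, 51.6% lay above the floor. FOXA2 and MUC5B lay well above it, and AGER, SCGB1A1 and MUC5AC lay above it by 0.18, 0.38 and 1.09 on the log2 scale. No member passed the test in any of the 3 comparisons. FOXA2 had the largest moderated F of the 10 (F = 12.9, adjusted p = 0.140) and lay lower in all 4 treated arrays than in both vehicle arrays.

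The floor was set from 358 olfactory receptor genes, taken here as mostly unused in lung epithelium, which was not tested. Their vehicle means ran from 2.06 to 6.57 with a median of 3.41 (log2), and their 95th percentile, 5.25, was taken as the floor. Of all genes, 51.6% lay above it. Probe sets differ in how brightly they respond, so a member's level was read against this floor and not against another member's level. The floor and the counts of olfactory receptor genes given below come from other genes' probe sets, and share this limit. The choice of floor matters for the dimmer members. With keratin-associated protein genes (89 of them) the floor was 6.39 and 8 of the 10 lay at or below it, which left MUC5B and FOXA2. With the 99th percentile of olfactory receptor genes it was 6.02, and AGER and SCGB1A1 joined the 5.

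**Figure D1:**
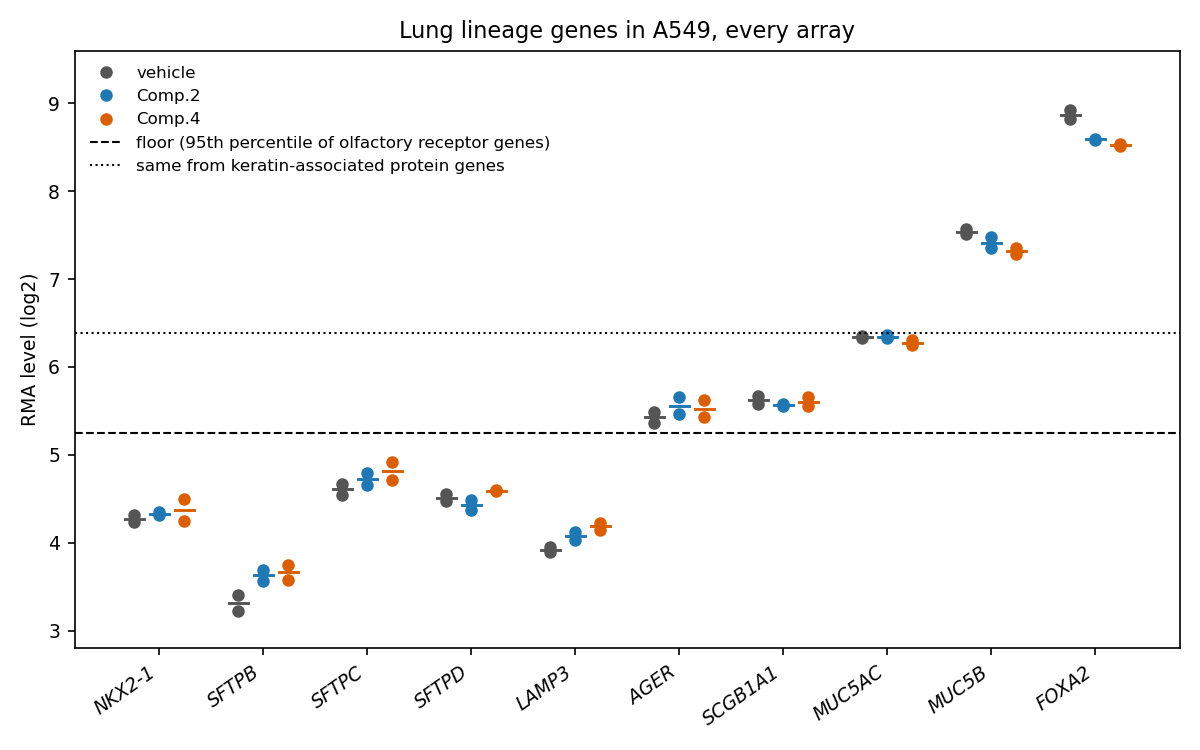
RMA level (log2, vertical axis) of the 10 genes in each of the 6 arrays; points are arrays, short bars are means of 2 arrays, and the dashed and dotted lines are the floors of 5.25 and 6.39 from olfactory receptor and keratin-associated protein genes. NKX2-1, SFTPB, SFTPC, SFTPD and LAMP3 lie below the dashed line in every array, and only MUC5B and FOXA2 lie above both lines.

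Promoter windows from RefSeq (GRCh38.p14) were matched for 4 members, NKX2-1, SFTPB, SFTPD and AGER, and gave 6 windows of 250 bases before a start. The forkhead words searched on both strands were TGTTTAC, the related word TGTTTGC, and the related word TGTTTGT. No 2 of these words matched the same bases of a member's window, and 10.1% of all 35116 windows held at least 1 of them. Among the members' windows 3 held 1 word each, 2 of NKX2-1 and 1 of SFTPB. They are shown because forkhead factors and NKX2-1 are textbook regulators of lung genes and because the forkhead gene FOXA2 and these 2 genes lay on opposite sides of the floor. Each line gives 30 bases, 5′ to 3′ on the gene's strand, with the word in capitals.
SFTPB, chr2:85668265-85668294, minus strand: ttcagagcaaagACAAACActgaggtcgct
NKX2-1, chr14:36520453-36520482, minus strand: ccagtgctgTGTTTGCtcggccgggggtgg
NKX2-1, chr14:36519669-36519698, minus strand: gaaacttaaaggTGTTTACcttgtcatcag
The SFTPB word is the reverse complement of TGTTTGT and spans bases -83 to -77 from the start. The NKX2-1 words span -241 to -235 of one start and -130 to -124 of another. For NKX2-1 itself the word CAAGTG and, separately, the word CTCAAG were searched on both strands, and 1 or the other was found in 18.3% of all windows and in 1 window of the members, that of the NKX2-1 gene, as CAAGTG at -147 to -142. A match of letters is a description and shows no binding.

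NKX2-1, the lung and thyroid lineage factor, read 4.31 and 4.23 in vehicle, 4.35 and 4.31 under Comp.2, and 4.25 and 4.50 under Comp.4 (log2). The 3 groups overlapped, and 71 of the 358 olfactory receptor genes had a higher vehicle mean. The difference was 0.06 under Comp.2 (95% interval -0.17 to 0.29) and 0.10 under Comp.4 (-0.13 to 0.34).

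The surfactant genes SFTPB, SFTPC and SFTPD also lay near the floor. SFTPB, which encodes the hydrophobic surfactant protein B that spreads the surfactant film, read 3.40 and 3.22 in vehicle, 3.57 and 3.69 under Comp.2, and 3.75 and 3.58 under Comp.4. All 4 treated arrays were above both vehicle arrays, yet every value was more than 1 log2 unit below the floor, and 191 olfactory receptor genes had a higher vehicle mean. The difference was 0.32 (SE 0.10, adjusted p = 0.346) under Comp.2 and 0.35 (SE 0.10, adjusted p = 0.175) under Comp.4. Of the 10845 genes near the floor, 5.05% had a larger absolute difference under Comp.2 and 4.70% under Comp.4.

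SFTPC, whose product is the surfactant protein C made by type II cells, read 4.67 and 4.54 in vehicle, 4.66 and 4.79 under Comp.2, and 4.72 and 4.92 under Comp.4. Vehicle and Comp.2 overlapped, while both Comp.4 arrays lay above vehicle by a difference of 0.21 (95% interval -0.03 to 0.45, adjusted p = 0.347). SFTPD, which encodes the innate immune collectin surfactant protein D, read 4.48 and 4.55 in vehicle, 4.48 and 4.38 under Comp.2, and 4.60 and 4.59 under Comp.4. Its Comp.4 arrays lay above the other 4 arrays, and the difference from Comp.2, 0.16 (SE 0.08, adjusted p = 0.382), had the smallest adjusted p of the 10 genes in the comparison of the compounds.

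LAMP3, a lysosomal membrane glycoprotein of lamellar bodies and mature dendritic cells, read 3.95 and 3.89 in vehicle, 4.03 and 4.12 under Comp.2, and 4.23 and 4.14 under Comp.4. The 3 groups did not overlap, with Comp.4 above Comp.2 and Comp.2 above vehicle, and all 6 values were more than 1 log2 unit below the floor. The difference was 0.16 under Comp.2 (adjusted p = 0.504) and 0.27 under Comp.4 (SE 0.08, adjusted p = 0.177).

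AGER encodes the receptor for advanced glycation end products, which is abundant on type I cells. Its brightest probe set read 5.49 and 5.37 in vehicle, 5.46 and 5.66 under Comp.2, and 5.62 and 5.43 under Comp.4. The groups overlapped. The 6 AGER probe sets carried only 2 distinct series of values, shared by 2 and by 4 probe sets, so they are not separate measurements. Their differences from vehicle were 0.13 under Comp.2 in both series of values, and 0.10 and 0.09 under Comp.4. A further probe set named for AGER and PBX2 together, at 5.86 to 6.20, entered no comparison. Of the olfactory receptor genes 14 had a higher vehicle mean.

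SCGB1A1, the uteroglobin gene that defines club cells, read 5.58 and 5.67 in vehicle, 5.56 and 5.58 under Comp.2, and 5.65 and 5.55 under Comp.4. Its 6 arrays spanned 0.12 log2 units and the groups overlapped in every comparison. The differences were -0.05 under Comp.2 (95% interval -0.24 to 0.13) and -0.02 under Comp.4 (-0.20 to 0.16).

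Both gel-forming mucins lay above the floor. MUC5AC, the surface goblet cell mucin, read 6.35 and 6.33 in vehicle, 6.36 and 6.33 under Comp.2, and 6.31 and 6.25 under Comp.4. Its 6 arrays spanned 0.11 log2 units. The Comp.4 arrays lay just below the others, by -0.06 against vehicle (95% interval -0.23 to 0.10), and only 2 olfactory receptor genes had a higher vehicle mean. MUC5B, the mucin of airway glands and distal airways, read 7.51 and 7.57 in vehicle, 7.48 and 7.36 under Comp.2, and 7.35 and 7.28 under Comp.4. Both compounds' arrays lay below vehicle without overlap. The difference was -0.12 under Comp.2 (SE 0.08, adjusted p = 0.602) and -0.22 under Comp.4 (SE 0.08, 95% interval -0.41 to -0.03, adjusted p = 0.239).

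FOXA2, the forkhead factor that opens endodermal enhancers, read 8.92 and 8.82 in vehicle, 8.60 and 8.59 under Comp.2, and 8.51 and 8.53 under Comp.4. Mean levels were 8.87 ± 0.07 in vehicle, 8.59 ± 0.01 under Comp.2 and 8.52 ± 0.02 under Comp.4 (SD, n = 2). All 4 treated arrays lay below both vehicle arrays, and every array was more than 3 log2 units above the floor. The difference was -0.28 under Comp.2 (SE 0.07, 95% interval -0.46 to -0.11, limma adjusted p = 0.272), which makes vehicle 1.22-fold higher, and -0.35 under Comp.4 (SE 0.07, -0.52 to -0.18, limma adjusted p = 0.112), which makes vehicle 1.27-fold higher. With a variance prior that follows the level, FOXA2 passed in both comparisons (adjusted p = 0.0275 and 0.00524), and among the brighter genes alone it passed under Comp.4 (adjusted p = 0.0256). Those settings also called many more genes. The level-dependent prior called 1.73% and 5.47% of all genes, against 0.196% and 0.147% in the fit reported here. The fit of the 11197 brighter genes, which held 5 members, called 7.49% of those genes under Comp.4. The compounds differed by -0.07 for FOXA2 (95% interval -0.24 to 0.11). Both comparisons with vehicle share its 2 arrays.

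**Figure D2:**
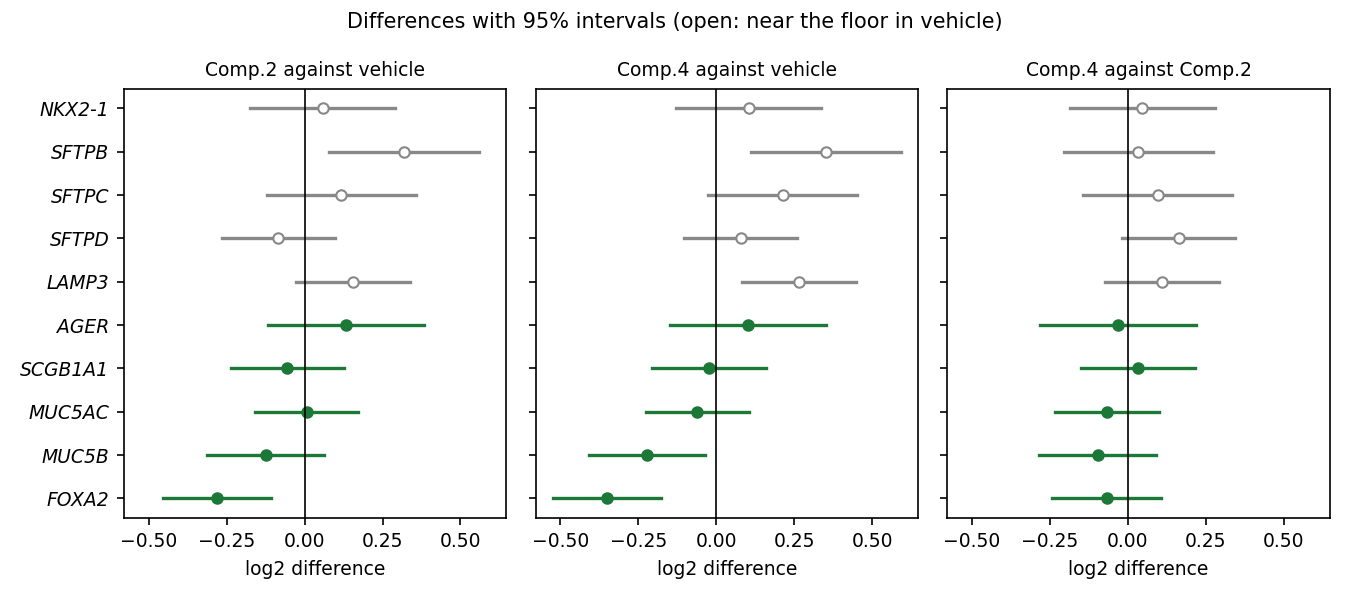
Log2 difference (horizontal axis) of each of the 10 genes in the 3 comparisons, with 95% intervals from the moderated variance; open symbols are genes near the floor in vehicle. FOXA2 lies at -0.28 and -0.35 and SFTPB at 0.32 and 0.35 against vehicle, and in the comparison of the compounds every interval includes 0.

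Counted together, 0 of the 10 genes passed under Comp.2, where limma called 0.196% of all genes, 0 of 10 under Comp.4, against 0.147%, and 0 of 10 between the compounds, against 0.371%. At an unadjusted p under 0.05 there were 2 under Comp.2 (SFTPB above and FOXA2 below vehicle; 11.2% of all genes), 4 under Comp.4 (SFTPB and LAMP3 above, MUC5B and FOXA2 below; 16.5%) and 0 between the compounds (15.0%). The arrays of the groups did not overlap for 4, 7 and 5 of the 10 genes, against 43.7%, 49.4% and 45.3% of all genes. The counts for Comp.2 and between the compounds lay near those shares, and none of the 3 counts was tested. The members' median difference was 0.03, 0.09 and 0.03, and that of all genes 0.0040, 0.018 and 0.0084. All 30 intervals lay within a 2-fold change, and 29 within a 1.5-fold change, the other being that of SFTPB under Comp.4, whose upper bound was 1.51-fold. For the 5 genes near the floor this limits the change of the array value and not that of the transcript, since RMA values of dim probe sets understate a change.

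FOXA2 was compared with other genes by its pattern over the arrays, as the member with the largest F. Of 12038 genes above the floor in at least 1 group, those whose levels ran most like it over the 6 arrays were SCMH1 (r = 0.996), HERC2 (r = 0.996) and TATDN1 (r = 0.994), and 74 had an r above 0.95. SCMH1, a Polycomb group protein gene, differed from vehicle by -0.29 and -0.37 under Comp.2 and Comp.4, HERC2, a ubiquitin ligase gene, by -0.12 and -0.16, and TATDN1, a nuclease gene, by -0.21 and -0.25. With 6 arrays in 3 groups such a likeness is a description.

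**Figure D3:**
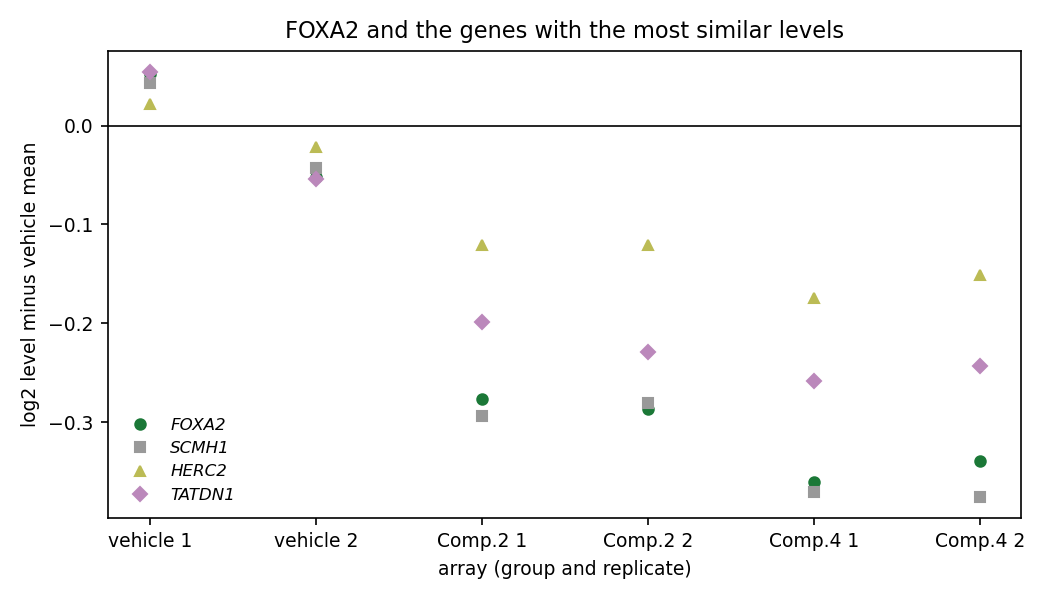
Log2 level minus the mean of the vehicle arrays (vertical axis) of FOXA2 and the 3 genes most correlated with it, in each of the 6 arrays. All 4 genes lie below both of their vehicle arrays in all treated arrays, HERC2 the least, by 0.12 and 0.16 on average.

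Other lineage genes also fell on both sides of the floor. From 8 further lists of lung cell types, of 76 genes written, 70 were measured and 34 lay above the floor. The share of all genes above it was 51.6%, so such a split is not particular to lung genes. Of the 13 measured type II genes 6 did, among them the phospholipid remodelling gene LPCAT1 (7.89) and the lamellar body transporter gene ABCA3 (7.22), while SFTPA1 (2.83), NAPSA (4.55) and SLC34A2 (3.43) did not. Of 8 type I genes 4 did, among them GPRC5A (9.23) and CAV1 (8.61), while PDPN (4.53), AQP5 (5.08) and HOPX (3.62) did not. Of 10 club and secretory genes 2 did, the aldehyde dehydrogenase gene ALDH1A1 (12.4) and the protease inhibitor gene SLPI (9.07). Above the floor were 5 of 9 goblet and mucus genes, with the goblet regulator SPDEF at 7.16 and the mucin glycosyltransferase gene GCNT3 at 6.09, and 5 of 10 ciliated cell genes, with the ciliary factor genes RFX3 at 6.63 and FOXJ1 at 5.99. Of 8 basal cell genes written, 6 were measured, without TP63, the factor that defines basal cells, and KRT17. Of these 6, ITGA6 (8.63) and DST (8.38), both used by many epithelia, lay above the floor, and the basal keratins KRT5 (4.02), KRT14 (3.97) and KRT15 (4.68) did not. Of 5 neuroendocrine genes 3 lay above the floor, among them the gastrin-releasing peptide gene GRP (5.76) and the calcitonin gene CALCA (5.38). Of the 9 measured transcription factors of lung endoderm 7 did, KLF5 (9.15) and SOX9 (8.33) among them, and FOXA1 (5.09), the paralog of FOXA2, did not. FOXA1 lay just under the floor in vehicle. Its mean was above the floor under Comp.2 (5.37) and Comp.4 (5.28, with arrays at 5.03 and 5.54).

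All 6 markers of simple epithelium lay above the floor, such as CDH1 (10.3) and KRT18 (8.23). Of markers of other cell types, 1 of 5 fibroblast (COL1A1, 5.45), 0 of 5 endothelial and 1 of 5 leukocyte genes (CD14, 6.03) did. The collagen gene COL1A2 (4.27), the endothelial receptor gene TEK (4.51) and cadherin gene CDH5 (4.26), the integrin gene ITGAM (4.82) and PTPRC, which all leukocytes carry (2.70), did not. Of 8 measured gut and liver endoderm genes 4 lay above the floor, among them the galectin gene LGALS4 (5.71) and the villin gene VIL1 (5.68). LGALS4, VIL1 and COL1A1 lie under the 99th percentile floor of 6.02, and CD14 under the keratin-associated floor of 6.39. None of these 5 lists had a gene past the threshold in any comparison. The summed linear signal of the gut and liver genes was 260.1 to 272.8 in vehicle, 290.1 to 296.3 under Comp.2 and 268.9 to 275.9 under Comp.4, so that both Comp.2 arrays lay above the other 4. That of the simple epithelium markers was 2150.4 to 2167.4 in vehicle, 2244.5 to 2262.2 under Comp.2 and 1934.0 to 1963.6 under Comp.4, with no overlap between groups. A linear sum gives most weight to the brightest gene, here CDH1, which differed from vehicle by -0.27 under Comp.4. KRT18 and EPCAM also had a lower mean under Comp.4 than in vehicle, and KRT7, KRT8 and KRT19 a higher one. The median difference of this list was 0.045 under Comp.2 and 0.02 under Comp.4. The endothelial markers summed to 91.8 to 94.7 in vehicle, 92.8 to 99.6 under Comp.2 and 97.1 to 98.1 under Comp.4, with both Comp.4 arrays above vehicle. The fibroblast markers summed to 96.4 to 100.1, 99.1 to 105.8 and 99.7 to 100.7, and overlapped. None of these sums was tested, and neither was their part in the members' differences. The summed signal of the leukocyte markers also overlapped, and was 118.7 to 123.1 in vehicle, 120.3 to 130.0 under Comp.2 and 121.4 to 129.8 under Comp.4.

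**Figure D4:**
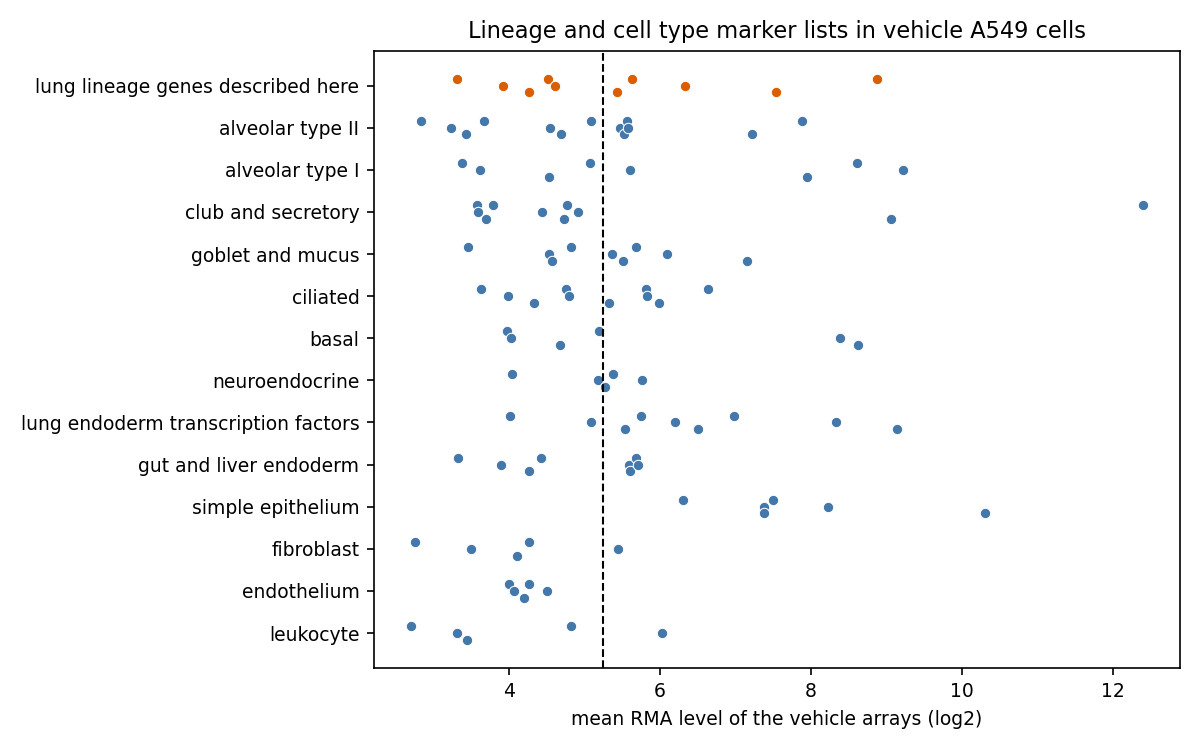
Mean level of the vehicle arrays (log2, horizontal axis) for the 10 genes and 13 marker lists, 1 point per gene; the dashed line is the floor of 5.25. All 6 simple epithelium markers and 0 of 5 endothelial markers lie above it. The 10 lineage genes split evenly, 5 on each side, and 51.6% of all genes lie above it.

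Among those 70 lung lineage genes 0 passed under Comp.2, where limma called 0.196% of all genes, 0 under Comp.4, against 0.147%, and 1 between the compounds, against 0.371%. GPRC5A, an orphan receptor gene induced by retinoic acid and abundant in lung epithelium, read 9.19 and 9.26 in vehicle, 9.69 and 9.87 under Comp.2, and 9.13 and 9.13 under Comp.4. It was lower under Comp.4 than under Comp.2 by 0.65 on the log2 scale (a difference of -0.65, SE 0.09, 95% interval -0.85 to -0.44, limma adjusted p = 0.0478). The call was lost with the replicate number as a block (limma adjusted p = 0.0841) and with the 2 groups alone (limma adjusted p = 0.132). It was lost too with all probe sets tested together (limma adjusted p = 0.107), and without any 1 of the 6 arrays. For this comparison, leaving out either vehicle array repeats the fit of the 2 groups alone, so these are not separate checks. The difference itself was -0.74 to -0.55 over all 15 alternatives, and the call was kept in the other 6. Among those 6 is the looser threshold of 0.10 on the same fit, which a gene past 0.05 cannot fail. The median difference of the 70 genes was 0.03 under Comp.2, 0.04 under Comp.4 and -0.0016 between the compounds. Under Comp.4 the difference from vehicle was 0.41 for SLPI (adjusted p = 0.0924), -0.43 for DST (adjusted p = 0.0813) and 0.40 for CEBPA, a factor of type II cell maturation (adjusted p = 0.140), none of them past the threshold. MUC1, of the same type II list as CEBPA, went the other way (-0.33, limma adjusted p = 0.174), and the median of that list was 0.03. EHF, of the endoderm factors, differed by 0.41 (limma adjusted p = 0.1435).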

How the data were processed

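RNA of the 6 A549 samples was measured on Affymetrix whole-transcript arrays. The deposited values are log2 levels, a single one for each probe set on each array. They came from RMA, which the authors ran, per the submitters' processing notes. RMA corrects background, equalises the arrays by quantiles and summarises probes, so a shift common to most transcripts is removed, and dim probe sets keep a floor. The notes list Affymetrix Expression Console 1.3.1 too, and Transcriptome Analysis Console 2.0, without their roles. Scanner files and detection calls were not used here. Array medians were 4.55 to 4.56, and precision is limited by having 2 arrays a group.

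Names came from the platform annotation: 23871 probe sets had 1 symbol, 1842 several and 27904 none, and only the first kind was used. The Entrez number of 22569 was found in the RefSeq table of GRCh38.p14, which updated 90 symbols. The probe set with the highest mean represented a gene (632 genes had several). limma 3.58.1 in R 4.3.3 was fitted over the whole gene table with 3 group means (3 residual and 3.71 prior degrees of freedom), after its script had been tested on simulated data. P-values are two-sided, adjusted by Benjamini-Hochberg over 22395 genes, with a threshold of 0.05. A permutation of 2 against 2 arrays cannot go below p = 0.333, so none was run. Alternatives covered the variance prior, gene filters, probe set choice, scaling, the samples fitted, a replicate block and each array left out.

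The members, marker lists, floor and alternatives were chosen with earlier results of these data known. By rule, values are given for all members, and for list genes past the threshold, among the 2 with the highest vehicle mean, or, above the floor, with the largest difference without overlap; not all of the last kind are printed. Other list genes named as near the floor were picked after their values were seen.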

Additional observations from a re-analysis of the deposited data

Results flagged for a closer look

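GPRC5A was the 1 gene of the lineage lists whose response differed between the compounds by the test of the difference itself, at -0.65 (Comp.4 minus Comp.2, log2, limma adjusted p = 0.0478). It passed in 6 of 15 alternatives, among them the looser threshold of 0.10, which it could not fail. Of the others, the fits without a vehicle array repeat that of the 2 groups alone. The difference was -0.74 to -0.55 over all 15. The limma adjusted p was 0.000312 with the level-dependent prior and 0.107 with all probe sets tested together. It was higher than vehicle by 0.55 under Comp.2 (adjusted p = 0.108) and differed by -0.10 under Comp.4 (adjusted p = 0.631). None of the 10 members differed between the compounds past the threshold.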

How the results depend on the processing

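Of 405 member differences recomputed under alternatives, 3 newly passed the threshold, all of FOXA2: 1 member passed under each compound when the variance prior followed the level, and 1 under Comp.4 when only brighter genes were tested. Those settings called 1.73%, 5.47% and 7.49% of the genes they tested. Only scaling, the mean of several probe sets and the leaving out of a compared array can move a log2 difference. The other settings leave it unchanged by construction and can move only its adjusted p. Leaving out an array of the group not compared repeats the fit of the 2 groups alone. The sign turned in 12, each with an array left out, for 8 differences of at most 0.10 in size, none past the threshold. Among them, without Comp.4 replicate 2, were NKX2-1 (-0.02 against vehicle and -0.08 against Comp.2) and SFTPC (-0.0061 against Comp.2). FOXA2 differed by -0.33 to -0.23 under Comp.2 and by -0.40 to -0.30 under Comp.4 over all alternatives. The ends of both ranges came from an array left out. The floor count of 5 members became 8 with keratin-associated protein genes.

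For all genes, the numbers past the threshold (44 for Comp.2 against vehicle, 33 for Comp.4 against vehicle and 83 for Comp.4 against Comp.2) were, in that order, 388, 1226 and 1075 with that prior, 233, 839 and 716 for brighter genes, 62, 0 and 47 with protein-coding genes only, 0, 99 and 2 with all probe sets, 14, 0 and 0 with only the 2 groups compared, and 85, 309 and 274 at an adjusted p of 0.10. Where limma gave 0 in those settings, 2848 to 4762 genes or probe sets had an unadjusted p under 0.05. Leaving out each array in turn gave 0 to 14, 0 to 0 and 0 to 1, with 1668 to 2484, 2381 to 3766 and 2720 to 3044 at an unadjusted p under 0.05. Those fits have fewer samples, and a group's lone array is assumed to vary like the others. For the other settings the cause was not tested.

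With the replicate block the counts were 15, 4 and 0 (3127 unadjusted for the last) and no member passed. The numbers in the sample titles were not taken as pairs. The deviations of same-numbered arrays correlated at 0.03, 0.01 and -0.04. With 2 arrays a group the deviations mirror each other, so each pair of groups gives only 1 value. These values show no large pattern shared by number, and cannot tell whether same-numbered arrays were handled together.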
